A study of Mus musculus with 4 samples.

Results

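The genes described here are Adcyap1r1, which encodes the receptor for the neuropeptide PACAP, and 9 genes of the cAMP response: Nr4a1, Nr4a2, Nr4a3, Crem, Pde3b, Pde4b, Pde4d, Fos and Prkar2b. They were measured by 23 of the 41174 non-control probes of an Agilent Whole Mouse Genome array, and every probe that the deposited files name for any of the 10 genes was used. The choice rested partly on these same arrays. Adcyap1r1 was taken because the smallest of its 3 ratios to the control array was the highest among 14280 genes ranked. In single treatments other probes rose more, and it stood at percentile 99.6 for bilberry, 99.6 for delphinidin and 99.7 for cyanidin. Its rise is given as a description and supports nothing. The other 9 genes were taken because they respond to cAMP or act on it.

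The cells were 3T3-L1, an established mouse preadipocyte line. The study asked how bilberry extracts and anthocyanidins, the pigments of the berry, affect the differentiation of these cells into adipocytes. All 4 cultures were induced on day 0 with 10 μg/mL insulin, 1 μM dexamethasone and 0.5 μM IBMX, an inhibitor of phosphodiesterases, and all 4 contained 0.1% DMSO. The control culture had nothing more, and the others received 100 μg/mL bilberry extracts, 100 nM delphinidin or 100 nM cyanidin. Delphinidin carries an additional hydroxyl group on the B ring relative to cyanidin. RNA was taken on day 2 and hybridized to 1 array per condition, with all 4 arrays on 1 slide. With 1 array per condition nothing could be checked against replicates and no p-value is given, and the precision rests on how few arrays there are. The cultures hold many cells, and fewer cells of a type cannot be told apart from less RNA per cell.

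PACAP binds a receptor coupled to the stimulatory G protein, which activates adenylyl cyclase and raises cAMP. The cAMP releases the catalytic subunits of protein kinase A from regulatory subunits such as the product of Prkar2b, and the kinase phosphorylates CREB, which binds cAMP response elements in promoters. Fos and the Nr4a genes, which encode transcription factors, are classical early targets of CREB, and Crem encodes both activators and the inhibitory early repressor that ends the response. Phosphodiesterases encoded by Pde3b, Pde4b and Pde4d degrade cAMP. In 3T3-L1 cells a rise in cAMP through IBMX is a standard part of the induction mix, and in mature adipocytes the same pathway drives lipolysis, which insulin opposes through the Pde3b enzyme.

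The promoters are shown first because CREB acts on its targets through cAMP response elements in promoters. Fos and the Nr4a genes were taken as known cAMP response genes, so core sites in their promoters are a description and not independent of the choice. RefSeq windows of 250 bases upstream of the annotated start (GRCm38.p6) were found for 8 of the 10 genes, in 12 windows. Each was searched for the short core of a cAMP response element, CGTCA or TGACG on the other strand, and for the full palindrome TGACGTCA. Capitals mark the core sites. All sequences run 5′ to 3′ in the direction of the gene, and that of Nr4a2 is from the minus strand. The windows are chr6:55451728-55451977 for Adcyap1r1, chr15:101266596-101266845 for Nr4a1, chr2:57124004-57124253 for Nr4a2, chr4:48045055-48045304 for Nr4a3 and chr12:85473640-85473889 for Fos.
Adcyap1r1: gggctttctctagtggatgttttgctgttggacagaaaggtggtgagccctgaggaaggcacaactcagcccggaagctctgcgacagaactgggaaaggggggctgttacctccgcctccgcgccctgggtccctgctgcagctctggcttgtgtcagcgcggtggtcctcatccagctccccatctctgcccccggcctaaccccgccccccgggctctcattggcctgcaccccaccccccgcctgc
Nr4a1: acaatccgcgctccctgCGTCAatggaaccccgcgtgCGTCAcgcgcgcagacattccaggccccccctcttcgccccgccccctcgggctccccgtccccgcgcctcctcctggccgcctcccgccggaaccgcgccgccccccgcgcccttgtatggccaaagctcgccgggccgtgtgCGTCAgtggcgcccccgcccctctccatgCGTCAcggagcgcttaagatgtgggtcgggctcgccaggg
Nr4a2: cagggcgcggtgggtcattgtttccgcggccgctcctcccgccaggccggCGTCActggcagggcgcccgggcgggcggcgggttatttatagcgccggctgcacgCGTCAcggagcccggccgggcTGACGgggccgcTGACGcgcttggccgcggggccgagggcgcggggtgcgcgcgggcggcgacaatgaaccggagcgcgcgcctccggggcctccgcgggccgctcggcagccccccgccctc
Nr4a3: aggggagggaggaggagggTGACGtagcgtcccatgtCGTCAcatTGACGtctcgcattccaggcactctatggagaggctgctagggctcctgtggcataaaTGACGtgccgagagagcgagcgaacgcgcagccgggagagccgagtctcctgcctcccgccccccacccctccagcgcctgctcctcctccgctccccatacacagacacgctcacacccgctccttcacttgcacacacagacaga
Fos: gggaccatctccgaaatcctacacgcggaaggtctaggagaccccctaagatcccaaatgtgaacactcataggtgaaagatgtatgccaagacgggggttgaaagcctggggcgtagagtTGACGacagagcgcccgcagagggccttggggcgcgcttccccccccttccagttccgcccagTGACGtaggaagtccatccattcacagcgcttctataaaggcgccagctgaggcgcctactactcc

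The windows of Nr4a1, Nr4a2 and Nr4a3 held 4 core sites each, and that of Fos held 2. For comparison, 17.8% of 32851 promoter windows of the same length held at least 1 core site, 3.90% held 2 or more and 0.688% held 3 or more. In Nr4a1 the core site nearest the start lay 40 bases upstream and in Fos 66 bases upstream. The Adcyap1r1 window held none. Of the 4 windows of Pde4b, 1 held a single core site, and the windows of Pde4d and Prkar2b held none. The full palindrome, present in 1.55% of all windows, occurred in no window of these genes. A match is a description of these letters and not evidence of binding.

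Signals are given as the processed intensity of the scanner software divided by the 75th percentile of its array and multiplied so that this percentile is 1000. An error after a single-spot signal is the software's own estimate, which for bright spots is little more than a fixed share of the signal. A ratio is the log2 difference between a treatment and the DMSO array, with 1 standard error from these spot errors or, for Fos, from its repeated spots. These errors cover the spots of an array and not a repeat of the experiment. A probe counted as measured in a comparison when the software called it well above background on at least 1 of the 2 arrays, and it was called changed past 2-fold. Where 1 array was dim, only a bound is given, for which the dim side was set to its own signal or, if this was larger, to the lowest signal well above background on that array. That lowest signal was 15.1 for DMSO, 22.5 for bilberry, 10.8 for delphinidin and 10.7 for cyanidin.

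The bilberry array stood apart from the others. Its 75th percentile was 576, against 861 to 1016 on the other 3 arrays, and 22783 of its probes were well above background, against 24064 to 24949. The spike-in control RNAs, unscaled, had a median log2 signal 0.96 above the DMSO array with bilberry, against -0.03 for delphinidin and 0.00 for cyanidin. Single controls ran from 0.10 to 1.14 with bilberry. Scaling to these controls instead shifts every ratio by -1.54 for bilberry, 0.26 for delphinidin and 0.23 for cyanidin, so directions with bilberry are relative to the 75th percentile. Of 11 adipocyte markers, 10 were well above background on all 4 arrays, the exception being Lep, and all 10 preadipocyte or fibroblast markers were. The summed scaled signal of the adipocyte markers was 414965 for DMSO, 295268 for bilberry, 455884 for delphinidin and 499435 for cyanidin. Fabp4, at 264533 for DMSO and 137259 for bilberry, made up most of it in the control. Of the 10 adipocyte markers measured, 6 were above the control array for bilberry, 6 for delphinidin and 8 for cyanidin. Of the 10 preadipocyte or fibroblast markers, 7 were lower with bilberry, 6 with delphinidin and 10 with cyanidin, and their summed signal was 960394 for DMSO, about 1038200 for bilberry, 875745 for delphinidin and 829087 for cyanidin. None of the 4 endothelial markers was well above background on all 4 arrays, and of the 5 macrophage markers only Cd68 and Csf1r were, with Ptprc, Adgre1 and Itgam dim on every array. The summed macrophage signal ranged from 94.3 for DMSO to 123 for cyanidin. Of 4 epithelial markers Krt8 alone was well above background on all 4 arrays, while Epcam, Cdh1 and Krt18 were dim throughout. Krt8 was at 25.6 for DMSO, 57.4 for bilberry, 89.2 for delphinidin and 53.4 for cyanidin. The summed epithelial signal was 38.8, 75.4, 102 and 67.4 in that order. Krt8 was thus higher on the same 3 arrays as Adcyap1r1, but this was not particular to it. Csf1r and the adipocyte markers Plin1, Cidec, Cfd, Lpl, Pparg and Cebpa were above DMSO on these 3 arrays too. Of 4 muscle markers Des and Acta1 were well above background on all 4 arrays, with a summed signal of 115 to 125 for the list, and of 4 neuron markers none was, with 32.1 to 77.3. Their part in the values below was not tested.

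Over the 10 genes, 1 probe was called higher with each treatment and 1 was called lower, with cyanidin. With bilberry 19 of the 23 probes were measured, 1 was higher and 0 were lower past 2-fold, where 5.04% of all 24289 measured probes were higher and 7.51% lower, 12.5% in all. With delphinidin 20 were measured with 1 higher and 0 lower, where 1.62% of all probes were higher and 2.64% lower, 4.26% in all. With cyanidin 20 were measured with 1 higher and 1 lower, where 1.11% of all probes were higher and 3.16% lower, 4.28% in all. The probe that was higher was the same Adcyap1r1 probe each time, and the probe that was lower was from Pde4b. The Adcyap1r1 calls follow from the choice of the gene, and nothing is read from counts of 1 or 2 probes beside these shares. Scaling to the spike-in controls gave 0 higher and 17 lower with bilberry, 2 higher and 0 lower with delphinidin and 1 higher and 0 lower with cyanidin. Counted by probe, where Crem, Pde4b and Pde4d enter several times, the median log2 ratio over those well above background on both arrays was -0.33 for bilberry (17 probes), -0.20 for delphinidin (19 probes) and -0.23 for cyanidin (18 probes), where all such probes had 0.14, -0.04 and -0.02. Counted by gene, with 9 genes at 1 probe each, it was 0.01 for bilberry, -0.10 for delphinidin and -0.15 for cyanidin, against 0.17, -0.04 and -0.02 over all genes. The median with bilberry thus lay nearer to that of all genes than when counted by probe, and still below it.

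**Figure D1:**
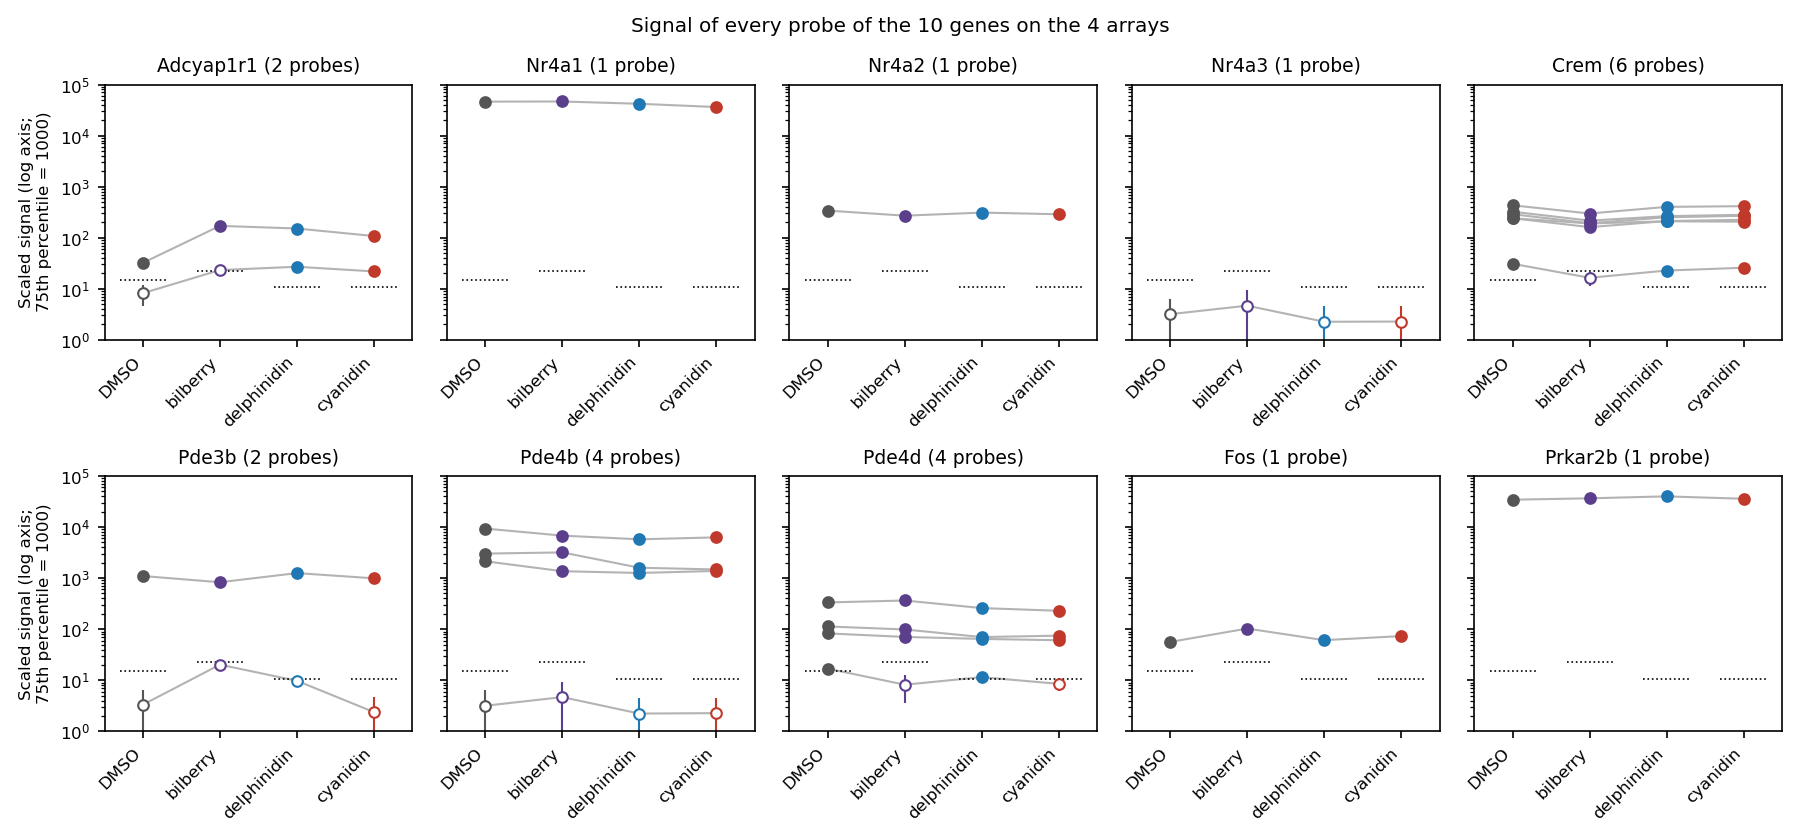
Scaled signal (log axis, 75th percentile of the array = 1000) of all 23 probes of the 10 genes on the 4 arrays. Grey lines join the values of a probe, open circles are not well above background, bars are the software's spot error and dotted lines the lowest signal well above background on that array. Only Adcyap1r1 shows a probe that lies above DMSO by more than 2-fold on all 3 treated arrays, and Nr4a3 lies below the dotted lines throughout.

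Adcyap1r1 was low in the control culture and higher in the 3 treated ones. Its brighter probe (mm8, chr6:55430413-55430472, plus strand) had a scaled signal of 32.2 for DMSO, 170.5 for bilberry, 151 for delphinidin and 108 for cyanidin, with software errors of 13.7%, 10.3%, 10.1% and 10.2% of the signal in the same order. The 3 treated arrays lay above the control array by more than the spot error, and cyanidin was the lowest of the 3. The log2 ratio was 2.40 ± 0.25 for bilberry, 2.23 ± 0.25 for delphinidin and 1.74 ± 0.25 for cyanidin, which is 5.29-fold, 4.70-fold and 3.35-fold. All measured probes higher past 2-fold in each of the 3 treatments numbered 47 of 23506, or 0.200%. The 3 ratios share the one DMSO array and its signal of 32.2, which is not far above the lowest signal of 15.1 that was well above background there.

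By its smallest ratio of 1.74, Adcyap1r1 stood first of 14280 genes, and the gene just outside the choice was Etv4 with 1.60. The second Adcyap1r1 probe (chr6:55427755-55427814) was dim with DMSO and with bilberry, at 8.19 and 23.2, and well above background with delphinidin and cyanidin, at 27.0 ± 3.65 and 21.8 ± 3.30. It was at least 1.78-fold higher with delphinidin and at least 1.45-fold higher with cyanidin, and no fold can be given with bilberry. The direction of both probes held in every alternative that gave a value, but the size did not. The ratio of the brighter probe fell to 1.38 for bilberry, 1.08 for delphinidin and 0.74 for cyanidin under normexp background correction with unmarked spots, which ends the 2-fold call with cyanidin. Normexp over all spots gave 2.38, 1.07 and 0.74, which leaves the bilberry ratio as it was. Spike-in scaling gave 0.86 for bilberry, which ends the call there.

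The genes whose 3 ratios lay nearest to those of Adcyap1r1 were sought by Euclidean distance among 14279 genes whose brightest probe was measured on each array. They were Etv4, Mmp3 and S100b, at distances of 0.62, 0.73 and 0.78 log2 units. Etv4, an ETS transcription factor, was above DMSO by 2.14 on the log2 scale for bilberry, by 1.68 for delphinidin and by 1.60 for cyanidin. Mmp3, a matrix metalloproteinase, had 1.77, 2.13 and 1.39 in the same order. S100b, a calcium-binding protein, had 1.72, 1.89 and 1.59. The likeness is over 4 arrays that share 1 control. It uses the same 3 ratios by which Adcyap1r1 was chosen, so genes near it are bound to be strong risers too. Etv4 was also at rank 2 of that choice. The 3 names are a description and do not show a common regulation.

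The PACAP transcript was at background, and the peptide itself was not measured. The PACAP gene, Adcyap1, was dim on each of the 4 arrays, with signals of 9.95 for DMSO, 5.25 for bilberry, 6.89 for delphinidin and 5.98 for cyanidin. Vip, the related ligand, was likewise dim on all 4. Of the receptors that PACAP shares with Vip, Vipr2 was dim on all 4 arrays at its brighter probe, and Vipr1 had 43.1 for DMSO, 42.2 for bilberry, 35.7 for delphinidin and 33.5 for cyanidin. Vipr1 thus showed no rise beside that of Adcyap1r1. These genes were named after their values were seen, as the partners of the receptor.

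Among the Nr4a genes, which encode orphan nuclear receptors induced early after a cAMP signal, Nr4a1 and Nr4a2 were measured on all 4 arrays and Nr4a3 on none. Nr4a1 (chr15:101102674-101102733) had 46198 for DMSO, 46480.3 for bilberry, 41910.3 for delphinidin and 36175 for cyanidin. Only cyanidin lay lower by more than the spot error, with a log2 ratio of -0.35 ± 0.20, and its 95% interval from spot errors ran from -0.75 to 0.05. The ratios with bilberry and delphinidin were 0.01 ± 0.20 and -0.14 ± 0.20, and the sign with bilberry turned in 5 of 10 alternatives. Nr4a2 (chr2:56923674-56923733, minus strand) had 339 for DMSO, 269.8 for bilberry, 310.0 for delphinidin and 288 for cyanidin. Its ratios were -0.33 ± 0.21, -0.13 ± 0.20 and -0.24 ± 0.20, and all 3 intervals include 0. Its ratio turned with bilberry to 0.53 under normexp over all spots, and those of both genes turned with delphinidin under spike-in scaling, to 0.12 and 0.13. Nr4a3 was at 2.26 to 4.67 on the 4 arrays, below the lowest signal well above background on each, so it has no ratio. The promoter windows of the 3 genes each held 4 core sites, at different positions, and the signal was measured at 2 genes and dim at the third. A link between these sites and the signal was not tested.

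Crem was lower with bilberry at each of its 6 probes, the sixth having only a bound, and no probe was called past 2-fold. With delphinidin and cyanidin the 6 ratios were below 0 too, but all 12 of their 95% intervals from spot errors include 0. All 6 lie on chromosome 18, 5 of them between 3267049 and 3268046 on the minus strand in mm8, where a pair overlap, and the transcripts they read cannot be told apart as activator or repressor forms. The brightest probe had 431 for DMSO, 298 for bilberry, 401 for delphinidin and 415 for cyanidin. Bilberry lay lowest of the 4 arrays at each of the 5 probes measured on every array. At these 5 the log2 ratio with bilberry ran from -0.58 to -0.34, with a median of -0.58 and errors of 0.21, and 4 of the 5 intervals left out 0. Over the 6 probes the ratio ran from -0.44 to -0.10 for delphinidin (median -0.20) and from -0.26 to -0.06 for cyanidin (median -0.15).

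A ratio below 1 in each of the 3 treatments was common, at 26.4% of all probes measured. With bilberry alone a log2 ratio of 0 stood at percentile 40.6 of all probes measured, and the 6 Crem probes stood at percentiles 15.3 to 23.6. The sixth Crem probe was at 30.8 for DMSO, dim at 16.4 for bilberry (at least 1.37-fold lower), and at 22.7 and 25.8 for delphinidin and cyanidin. The direction depended on the processing. With normexp over all spots the ratio with bilberry was 0.33 to 0.93 at the 5 probes, in a fit that put the background mean of the bilberry array at -345, against -3.88 to -6.15 on the other arrays and -5.65 on the bilberry array without marked spots. Under spike-in scaling 4 of 6 probes lay above DMSO with delphinidin and 5 of 6 for cyanidin, and 1 probe turned with cyanidin under quantile normalization, at 0.02.

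**Figure D2:**
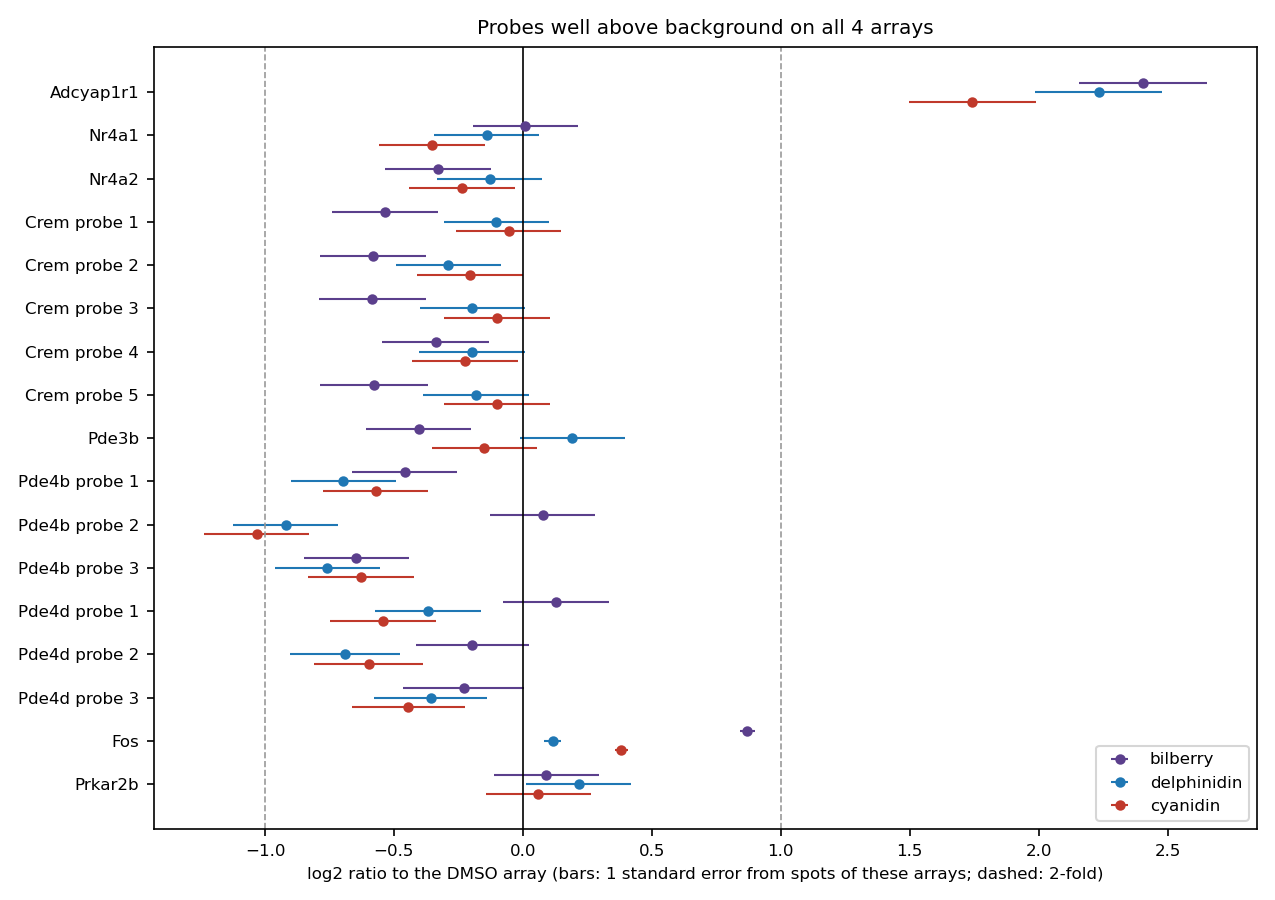
Log2 ratio to the DMSO array for the 17 probes well above background on all 4 arrays, with 1 standard error from the spots of these arrays and dashed lines at 2-fold. Adcyap1r1 lies between 1.74 and 2.40, the Crem probes lie below 0 in every treatment, and the Pde4b and Pde4d probes lie below 0 for delphinidin and cyanidin.

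Among the phosphodiesterases, the ratios of Pde4b and Pde4d, cAMP-specific enzymes, were below 0 with both anthocyanidins at every probe measured, and 1 of these 14 ratios passed 2-fold. Pde3b, the enzyme through which insulin lowers cAMP in adipocytes, was below DMSO with bilberry. With cyanidin it was below DMSO and with delphinidin above it, each by less than the spot error. Whether these genes differ from each other was not tested. The Pde3b probe (chr7:114327334-114327393) had 1099 for DMSO, 830.4 for bilberry, 1255 for delphinidin and 991 for cyanidin. Its log2 ratios were -0.40 ± 0.20, 0.19 ± 0.20 and -0.15 ± 0.20. Delphinidin was the only array above DMSO, although spike-in scaling put cyanidin at 0.09. The other Pde3b probe, which lies on the minus strand, was dim on all 4 arrays.

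Pde4b was measured by 3 probes, and another was dim on every array. The brightest (chr4:102103480-102103538) had 9334 for DMSO, 6794 for bilberry, 5757 for delphinidin and 6281 for cyanidin, with log2 ratios of -0.46, -0.70 and -0.57, each ± 0.20. A neighbouring probe (chr4:102103215-102103274) had 2137, 1366, 1263 and 1383, with ratios of -0.65, -0.76 and -0.63, each ± 0.20. At these 2 probes all 3 treated arrays lay below DMSO. The probe farther upstream (chr4:102069088-102069147) gave another picture for bilberry, with 3023 for DMSO, 3189 for bilberry, 1598 for delphinidin and 1478 for cyanidin. Here bilberry lay beside DMSO, at 0.08 ± 0.20 with a sign that turned in 4 of 10 alternatives, while delphinidin was at -0.92 ± 0.20 and cyanidin at -1.03 ± 0.20. The value with cyanidin is 2.05-fold lower and is the call past 2-fold, and it sits so near the threshold that 4 alternatives (both normexp fits, spike-in scaling and centring by block) end it.

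Pde4d was measured by 4 probes. The brightest (chr13:111074097-111074156) had 334 for DMSO, 365 for bilberry, 259 for delphinidin and 229 for cyanidin, with log2 ratios of 0.13 ± 0.21, -0.37 ± 0.20 and -0.54 ± 0.21. A second probe had 113, 98.7, 70.1 and 74.7 in the same order and ratios of -0.20 ± 0.22, -0.69 ± 0.21 and -0.60 ± 0.21. At both, delphinidin and cyanidin lay below DMSO, and the 95% interval with bilberry included 0. The third had 82.7, 70.5, 64.5 and 60.7 and ratios of -0.23 ± 0.23, -0.36 ± 0.22 and -0.45 ± 0.22, and its interval with bilberry included 0 too. The last was near background, at 16.9 for DMSO and 11.5 for delphinidin, and dim with bilberry and cyanidin. It was at least 1.57-fold lower with cyanidin, and no fold can be given with bilberry. With delphinidin the intervals of 3 of the 4 Pde4d probes, all but the second, include 0. The bilberry ratios of Pde4d had no stable direction. Under normexp over all spots the second probe turned to 1.43 and the one after it to 1.74, both past 2-fold, and with unmarked spots they turned to 0.08 and 0.28, while spike-in scaling put the brightest at -1.41.

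Over both genes, 7 of 7 probes measured were below DMSO with delphinidin and with cyanidin, where 44.5% of all probes were so in both. The direction of each held in all alternatives run, spike-in scaling included. Pde3b is left out of this count and was above DMSO with delphinidin. The direction was not particular to these 2 genes. Of the 20 probes of the 10 genes measured, 15 were below DMSO with delphinidin and 16 with cyanidin. A fall past 1.5-fold in both anthocyanidins was seen at 3 probes of the 10 genes, of which 2 were from Pde4b and 1 from Pde4d, where 5.73% of all probes met it. Probes of 1 gene read the same RNA and are not replicates, and both anthocyanidin ratios share the DMSO array.

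Fos, a subunit of the AP-1 transcription factor, was the member measured most precisely, since its probe (chr12:86366053-86366112) was printed 10 times on each array. The scaled signal was 56.3 ± 1.87 for DMSO (SD, 9 spots), 103 ± 4.76 for bilberry (7 spots), 61.1 ± 3.66 for delphinidin (9 spots) and 73.3 ± 3.11 for cyanidin (10 spots). The spots ranged from 53.0 to 58.8 for DMSO, 98.3 to 110.2 for bilberry, 56.6 to 66.4 for delphinidin and 69.3 to 77.9 for cyanidin. The ranges with bilberry and cyanidin did not overlap that of DMSO, and the range with delphinidin did. The log2 ratio was 0.87 ± 0.03 for bilberry, 0.12 ± 0.03 for delphinidin and 0.38 ± 0.03 for cyanidin. With 75th percentile scaling none passed 2-fold, and the spots of an array are repeats of 1 labeled RNA.

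The bilberry array had 3 marked Fos spots, at 62.5, 82.9 and 149.8, and keeping them gave 0.83. Spike-in scaling turned the ratio with bilberry to -0.67. Normexp over all spots raised it to 2.00, past 2-fold, and normexp with unmarked spots gave 0.71. Both normexp fits turned the ratio with delphinidin to -0.04 and lowered that with cyanidin to 0.09. The size of the Fos ratio thus depended on the processing in all 3 treatments, and its direction with bilberry and delphinidin did too. At 1.5-fold, 2 probes were higher with bilberry (Adcyap1r1 and Fos), where 18.7% of all probes were.

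**Figure D3:**
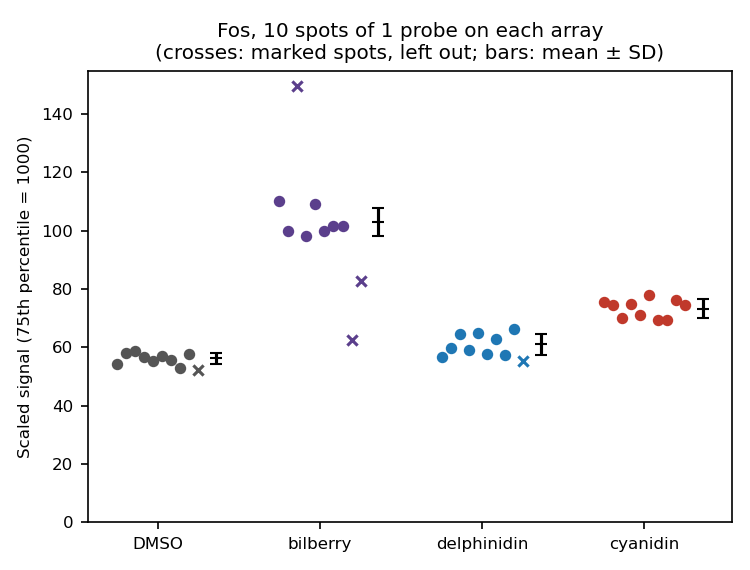
Scaled signal (linear axis from 0, 75th percentile of the array = 1000) of each of the 10 Fos spots on the 4 arrays. Dots are the spots used, crosses those marked by the software and left out, and bars the mean ± SD. The bilberry spots lie at 98.3 to 110.2, the cyanidin spots at 69.3 to 77.9, and the DMSO and delphinidin spots overlap.

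Prkar2b, the regulatory subunit of protein kinase A that prevails in adipocytes, stayed close to the control. Its probe (chr12:32543773-32543832, minus strand) had 34360 for DMSO, 36569.7 for bilberry, 39917 for delphinidin and 35821 for cyanidin. The log2 ratios were 0.09, 0.22 and 0.06, each ± 0.20. All 3 intervals include 0, and the sign with bilberry turned in 4 of 10 alternatives.

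Delphinidin and cyanidin were given at the same dose and time, so their arrays were set against each other as 1 pair over the 10 genes. Of 20 probes measured, 0 passed 2-fold, against a background of 2.59%. The 95% interval from spot errors left out 0 at 2 probes, which are not comparable with the rest. Adcyap1r1 was chosen on these arrays, so its values are a description, and Fos has the small error of its repeated spots, where the other probes have the software's larger one. The brighter Adcyap1r1 probe was higher with delphinidin by 0.49 on the log2 scale (interval 0.08 to 0.90), or 1.40-fold, and the second probe by 0.30 (interval -0.27 to 0.88). Fos was lower with delphinidin, with a log2 difference of -0.26 (interval -0.33 to -0.20). Both differences are those of 1 array against 1 array.

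The other members, all with the software's error, gave differences whose intervals include 0. Pde3b was at 0.34 (interval -0.06 to 0.74), Nr4a1 at 0.21 (interval -0.19 to 0.61), Prkar2b at 0.16 (interval -0.24 to 0.56) and Nr4a2 at 0.11 (interval -0.29 to 0.51). The 6 Crem probes ran from -0.18 to 0.03, the 3 Pde4b probes from -0.13 to 0.11 and the 3 Pde4d probes measured on both arrays from -0.09 to 0.18. Differences of up to 0.74 in either direction lie inside these intervals, so the compounds are not shown to act alike. No member gave delphinidin and cyanidin more than 2-fold apart under spike-in, quantile or normexp processing. With no filter and no bound the second Pde3b probe, which was dim throughout, did, at 2.03 on the log2 scale.

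The other genes of cAMP signaling were taken from a list of 98 genes written with earlier results known, of which 95 had a probe and 92 a value. Each was read at its brightest probe. Past 2-fold with bilberry, 1 gene was higher and 5 lower of 68 measured, where 12.8% of all genes were called. With delphinidin 0 were higher and 1 lower of 70 (background 4.81%), and with cyanidin 1 was higher and 1 lower of 70 (background 4.75%). Spike-in scaling gave 0 higher and 57 lower with bilberry, and normexp over all spots 18 higher and 4 lower. The median log2 ratio of the list was 0.09 for bilberry, -0.16 for delphinidin and -0.18 for cyanidin, against 0.17, -0.04 and -0.02 over all genes.

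Egr3, an early zinc-finger transcription factor, was the gene higher with bilberry, at 22.8 for DMSO, 66.5 for bilberry, 34.6 for delphinidin and 41.8 for cyanidin, a log2 ratio of 1.54 ± 0.30. Its second probe was well above background with delphinidin only, so it gave no ratio with bilberry and the call rests on 1 probe. The call ended under normexp with unmarked spots, at 0.81, and under spike-in scaling, at 0.00. Creb5, a CREB family factor, was at 123, 34.2, 65.8 and 48.5, and was lower by a log2 ratio of -1.84 ± 0.29 for bilberry and -1.34 ± 0.22 for cyanidin, with -0.90 ± 0.21 for delphinidin. All 3 treated arrays lay below DMSO. Both Creb5 calls ended under the normexp fits, which gave -0.80 and -0.81 for cyanidin and, for bilberry, -0.53 with unmarked spots and 1.32 over all spots, the other direction. Inhba, which encodes a subunit of activin, was at 6986, 2301, 5136 and 5283, with -1.60 ± 0.20 for bilberry. Its bilberry array lay far below the other 3, and the call held in all 10 alternatives that kept the 2-fold threshold. Some of these could not have ended it. The filters, the kept marked spots and the deposited table left the ratio as it was, and spike-in scaling only lowers it. The remaining ones gave -1.91 to -1.57.

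The calcium-dependent phosphodiesterase Pde1a was at 6272 for DMSO, 2799.8 for bilberry, 3769 for delphinidin and 3777 for cyanidin, with -1.16 ± 0.20 for bilberry, and its other 3 probes gave -0.82 to -0.71. This call held in the same 10 alternatives, with the same limit. Those that could have ended it gave -1.47 to -1.14. Pde1b, of the same subfamily, was at 160.4, 85.9, 66.1 and 94.5, and was lower past 2-fold with delphinidin, by -1.28 ± 0.21, a call that both normexp fits ended at -0.87. Both thus lay below DMSO on all 3 treated arrays. Some Pde4b and Pde4d probes did too, but not every phosphodiesterase did. Pde7a, named as an exception since it was not called, was above DMSO on all 3, with log2 ratios of 0.62, 0.18 and 0.21. Over the phosphodiesterases of the list well above background on both arrays the median was 0.17 for bilberry (6 genes), -0.17 for delphinidin (7 genes) and -0.38 for cyanidin (6 genes). Ep300, a coactivator of CREB, was at 103, 51.2, 88.2 and 66.9, with -1.01 ± 0.26 for bilberry, close to the threshold. That call ended in 4 of the 10 alternatives, and normexp over all spots turned it to 1.57. The prostacyclin receptor Ptgir was at least 2.41-fold lower with bilberry, where it was dim, but its other probe gave 0.79 and neither normexp fit gave a bound in either direction.

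Pde8b was at 117 for cyanidin and dim on the other 3 arrays, at least 7.76-fold higher than DMSO and at least 10.9-fold higher than delphinidin, but its second probe was dim throughout. It rests on 1 spot of 1 array, and normexp over all spots lowered the log2 bound against DMSO to 1.17. Between the anthocyanidins, 2 genes were higher with delphinidin and 1 lower of 72 measured, where 2.95% of all genes were called. Those higher were Pth1r, a receptor for parathyroid hormone, by 1.17 ± 0.32, and Pde4c by at least 2.86-fold, both near background with cyanidin, and both calls ended under the normexp fits. The gene that was lower was Pde8b.

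By role, the genes listed as cAMP targets had medians of 0.27 for bilberry (13 genes), -0.13 for delphinidin (14 genes) and -0.26 for cyanidin (14 genes). The CREB factors and coactivators had 0.20, -0.08 and -0.09 in that order (10 genes). The subunits of protein kinase A outside the 10 genes had log2 ratios of 0.37 to 0.73 for bilberry (4 genes measured), -0.25 to 0.38 for delphinidin and 0.10 to 0.39 for cyanidin. The A-kinase anchors had -0.86 to -0.23 for bilberry, -0.56 to 0.46 for delphinidin and -0.44 to 0.25 for cyanidin (4 genes). The AP-1 factors other than Fos had a median of 0.13 for bilberry, -0.39 for delphinidin and -0.34 for cyanidin (6 genes). The receptors had medians of -0.37, -0.37 and -0.29 over 8, 10 and 10 genes well above background on both arrays. The adenylyl cyclases, which make cAMP, had medians of -0.16, -0.25 and -0.24 over 4, 5 and 5 such genes. The G proteins had 0.22, -0.17 and -0.03 (4 genes) and the inhibitors of protein kinase A 0.55, 0.13 and 0.04 (2 genes), and the ligands and the Epac exchange factors had 1 measured gene each. With spike-in scaling the bilberry values of every role move down by 1.54.

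**Figure D4:**
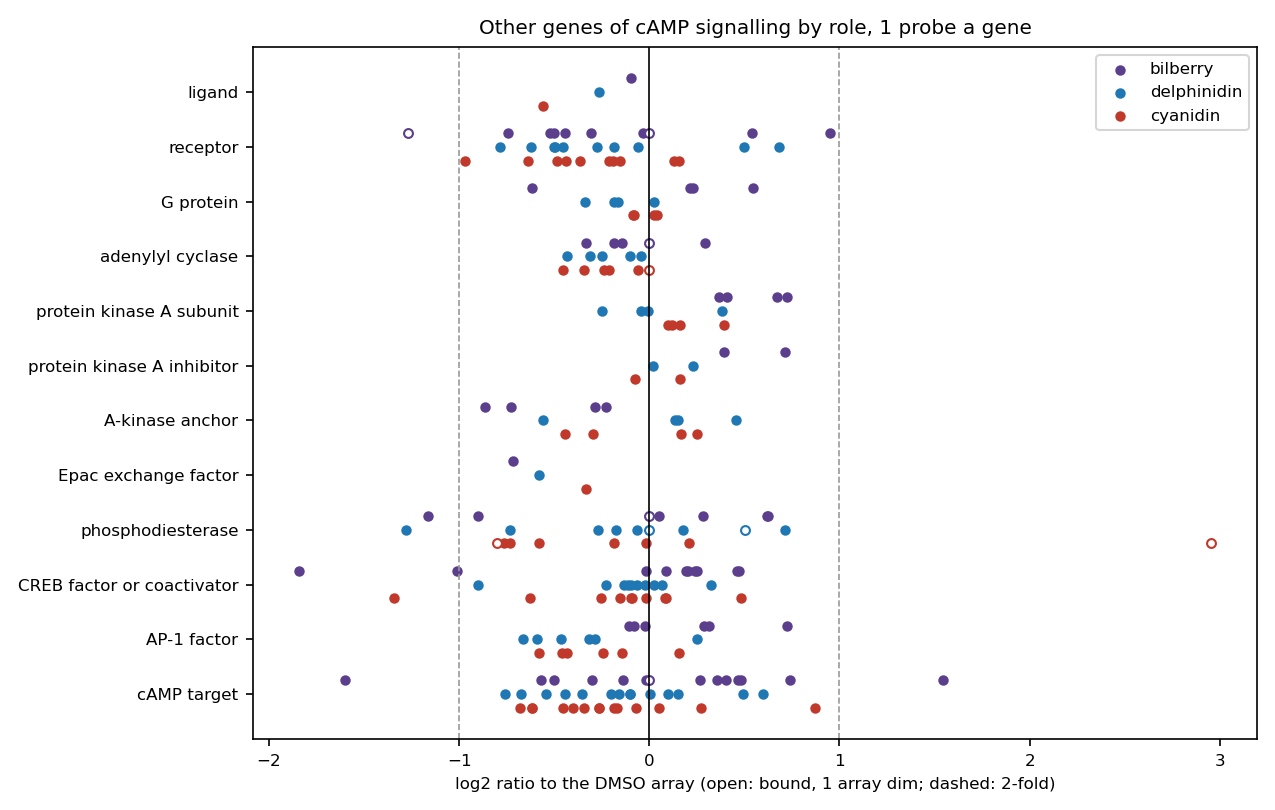
Log2 ratio to the DMSO array of the other cAMP signaling genes, 1 probe a gene, grouped by role and coloured by treatment. Open circles are bounds with 1 array dim, and dashed lines mark 2-fold. The lowest value is Creb5 for bilberry at -1.84 and the highest measured one Egr3 for bilberry at 1.54, and the open circle at the far right is the bound for Pde8b with cyanidin.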

How the data were processed

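RNA of 3T3-L1 cells on day 2 was measured on 1 single-colour Agilent array per condition. The authors processed the scanned images with Feature Extraction (module 9.5.1.1, build mm8 per the file headers). The methods give a different version number for this software. The deposited intensity of every spot was background-subtracted by the software and not yet scaled. A deposited table of the series holds the same intensity, with a largest difference of 0 from the scanner files.

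Signals were divided by the 75th percentile of the same array, the scaling the methods name, and converted to log2. The percentile was taken here over the 43379 non-control spots, where the methods speak of all measurements. The floor of 0.01 in the methods was not applied, and 0 signals lay below it. Spots marked as outliers, 701 to 875 on an array, were not used, and the others of a probe were averaged, giving 39373 of 41174 probes with a value throughout. A probe was measured when well above background on at least 1 of the 2 arrays and called past 2-fold. For arrays the signal over background takes the place of depth. Single-spot errors are the software's, mostly a fixed share of the signal, and the median SD of repeated spots was 0.033 to 0.039 on the log2 scale.

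The members and lists were chosen with earlier results of these data known. Named are all members, the pathway genes called (at most 5 per direction) and the 3 genes nearest to Adcyap1r1. Exceptions are named as such. The 12 alternatives, and any probe of a gene, cover background correction, scaling, position, filters, thresholds and source. For an unmarked single-spot probe well above background on both arrays, the filters, kept marked spots and deposited table cannot change the ratio. Promoters are RefSeq windows (GRCm38.p6). Python 3.11.15, numpy 2.4.6, pandas 2.3.3, matplotlib 3.10.9, R 4.3.3 and limma 3.58.1 were used. The real-time RT-PCR and western blots of the study were not analysed here.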

Additional observations from a re-analysis of the deposited data

Results flagged for a closer look

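The spike-in control RNAs, which were not part of any comparison, had an unscaled median log2 signal 0.96 above DMSO with bilberry, over 10 control probes, against -0.03 for delphinidin and 0.00 for cyanidin. The value is given here because it is a signal outside the measured genes that stands above its level in the control. The bilberry ratios of all members move down by 1.54 on the log2 scale when these controls set the scale, to 0.86 for the brighter Adcyap1r1 probe and -0.67 for Fos. Single controls ran from 0.10 to 1.14 above DMSO with bilberry, with the lowest at 0.10 and 0.27 and the next at 0.85, so the shift rests on their median. The source of the higher control signal was not tested.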

How the results depend on the processing

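No paired analysis was possible because each condition had 1 array. Scaling by the median over probes measured on every array, keeping marked spots and using the deposited table changed no count by more than 1.5 times. Member probes called past 2-fold numbered 1 with bilberry, 1 with delphinidin, 2 with cyanidin and 0 between the anthocyanidins, and pathway genes 6, 1, 2 and 3 in that order. At 1.5-fold the member counts were 3, 6 and 5 with the 3 treatments, and the pathway counts 20, 12, 12 and 8. At 3-fold the member count with cyanidin was 1, and the pathway counts were 2, 0, 1 and 1. With no filter and no bound the member counts were 4 with bilberry, 3 with delphinidin and 1 between the anthocyanidins, and the pathway counts 10, 4, 7 and 6. Requiring both arrays well above background gave 1 pathway gene with cyanidin and 1 between the anthocyanidins, and allowing any probe of a gene gave 10 with bilberry and 3 with delphinidin.

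With normexp over all spots the member counts were 4 with bilberry and 0 with cyanidin, and the pathway counts 22, 0, 1 and 1. With marked spots left out of that fit the member count with cyanidin was 0, and the pathway counts were 2, 0, 1 and 1. Spike-in scaling gave 17, 2 and 1 member probes with the 3 treatments and 57 pathway genes with bilberry, and centring by block gave 1 member probe with cyanidin. The cause of these changes was not tested. Dim probes limit Nr4a3, the second Pde3b probe and a Pde4b probe, which were not called well above background on any array.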
